A study of Mus musculus with 24 samples.

Results

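Hyaluronan is a large, unbranched glycosaminoglycan of the skin matrix, and 10 genes that build it, cut it or bind it were followed here through skin and day 3 wounds at 3 body sites. The genes were chosen by name for these roles, with earlier results of the same data known, and all 10 were found among the 18368 genes of the expression table. They are the hyaluronan synthase genes Has1, Has2 and Has3, the hyaluronidase genes Hyal1 and Hyal2, the receptor genes Cd44 and Hmmr, and the genes of the hyaluronan-binding matrix proteins Tnfaip6, Vcan and Hapln1. Of these, 9 were expressed highly enough to be tested across all 24 libraries, and Hapln1 was not.

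The libraries were made from whole skin of outbred CD1 mice aged 7 weeks with hair follicles in telogen, the resting stage, wounded with a 2 mm punch through the full thickness of the skin at a single site, which was the abdomen, the back or the cheek. On day 3 the wound and the unwounded skin beside it were taken from each of 12 mice, 4 for each site, so there were 6 groups of 4 libraries and each wound had a control from the same animal. Mice wounded on the abdomen or back carried 2 wounds and those wounded on the cheek carried 1. The animals carried no genetic change or drug treatment named in the labels, and the replicates are separate mice.

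Hyaluronan is made at the cell surface by synthases that pass the growing chain out of the cell, is cut by hyaluronidases and is taken up through receptors. In skin it is abundant in the dermis and between the living cells of the epidermis, and injured tissue is known to become rich in it. Proteins such as versican and TSG-6, the product of Tnfaip6, crosslink its chains into a loose matrix that cells can move through.

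The abundance of each gene is given as FPKM, a count of sequenced fragments scaled for library size and for transcript length, so that levels of different genes can be set side by side. In the 12 unwounded libraries Cd44 was the most abundant of the 10 genes at 30.4 ± 5.11 FPKM (SD), followed by Hyal2 at 20.5 ± 3.43 FPKM, Hyal1 at 12.7 ± 2.51 FPKM and Vcan at 6.89 ± 1.53 FPKM. Tnfaip6 at 3.40 ± 1.38 FPKM and Hmmr at 3.12 ± 1.23 FPKM were neighbours whose spreads overlapped, and Has2 followed at 2.07 ± 0.607 FPKM. Has3 at 0.981 ± 0.784 FPKM, Has1 at 0.343 ± 0.180 FPKM and Hapln1 at 0.214 ± 0.102 FPKM were the lowest. In the 12 wound libraries Has3, at 6.50 ± 3.10 FPKM, stood beside Hmmr at 6.26 ± 1.58 FPKM and Has2 at 5.41 ± 2.37 FPKM, with overlapping spreads. Vcan at 15.0 ± 3.01 FPKM and Tnfaip6 at 14.4 ± 5.11 FPKM stood beside Hyal1 at 14.6 ± 2.67 FPKM, also with overlapping spreads.

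A wound effect is the difference between wound and unwounded skin of the same mouse on the scale log2(FPKM + 0.5), fitted with limma over all 24 libraries, and it was called at an adjusted p below 0.001. In the back, 7 of the 9 tested genes rose (Cd44, Has1, Has2, Has3, Hmmr, Tnfaip6 and Vcan), where 10% of all 14423 tested genes rose. In the cheek, 5 of the 9 rose (Cd44, Has2, Has3, Tnfaip6 and Vcan), where 6.50% of all tested genes rose. In the abdomen, 2 of the 9 rose (Cd44 and Has3), where 3.92% of all tested genes rose. None of the 9 fell by the limma test at any site, where 4.37% of all tested genes fell in the back, 2.19% in the cheek and 1.04% in the abdomen. Has1 met the filter on low values through its wounds, with 12 wound libraries but only 3 unwounded libraries at 0.5 FPKM or more, so it could enter the test as a rise alone, and without it 6 of 8 rose in the back. At an unadjusted p below 0.05 the wound effect passed for 9 of the 9 genes in the back, 8 in the cheek and 8 in the abdomen, all as increases, against 53.5%, 46.4% and 44.3% of all tested genes in either direction. All 4 wound libraries lay above all 4 unwounded libraries for 8 of the 9 genes in the back, 7 in the cheek and 5 in the abdomen, as they did for 25.0%, 16.7% and 13.4% of all tested genes. The median wound effect of the 9 genes was 1.45 in the back, 1.00 in the cheek and 0.72 in the abdomen, against medians over all tested genes of 0.07, 0.01 and -0.01. In the back and abdomen this median was the value of Has1 itself. The unadjusted and no-overlap counts include Has1 at every site.

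**Figure D1:**
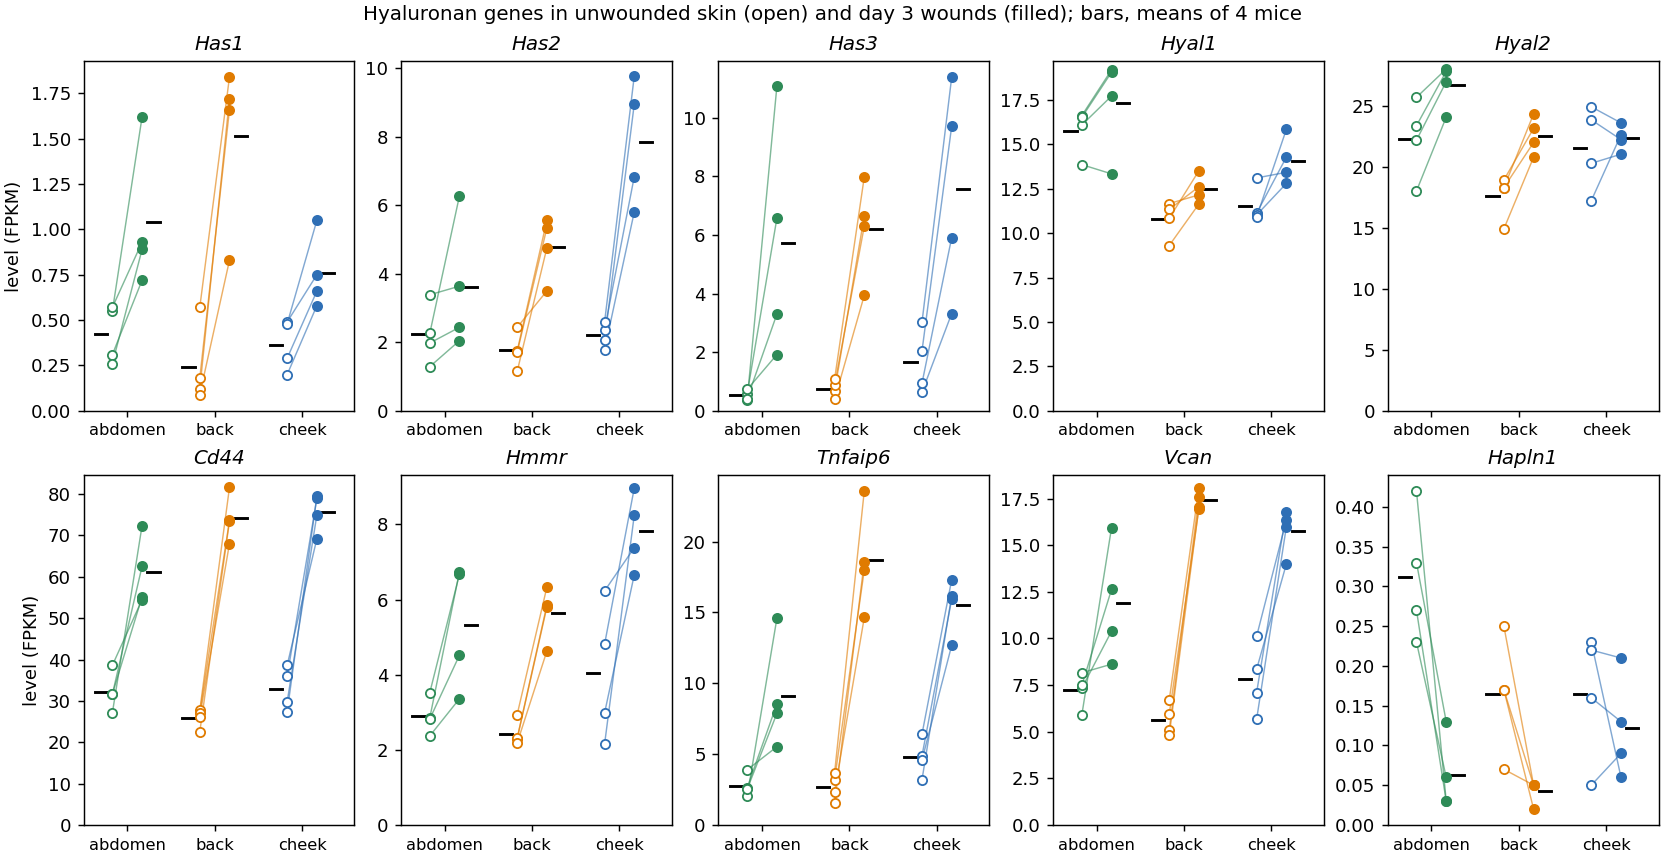
Level of each of the 10 genes in FPKM, from 0 on every axis, in the 24 libraries by site. Open circles are unwounded skin, filled circles are day 3 wounds, lines join the libraries of 1 mouse and black bars are means of 4 mice. The 3 synthase genes, Cd44, Hmmr, Tnfaip6 and Vcan were higher in the wound in 12 of 12 mice, and Hapln1 was lower in 11 of 12.

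The synthases are described first. Has3, whose enzyme is known for making shorter chains than the other two synthases, was the synthase gene with the largest wound effect at each site. In unwounded abdomen its levels were 0.38, 0.58, 0.42 and 0.73 FPKM in mice 1 to 4, and in the abdomen wounds of the same mice 11.07, 6.57, 3.30 and 1.92 FPKM. In the back its levels were 0.67, 0.88, 1.08 and 0.39 FPKM unwounded and 6.65, 6.30, 7.98 and 3.94 FPKM in the wound. In the cheek they were 0.64, 0.94, 2.04 and 3.02 FPKM unwounded and 3.32, 5.91, 9.71 and 11.38 FPKM in the wound. Every wound library was above every unwounded library of its site, and the abdomen wounds spread over the widest range relative to their mean. The wound effect of Has3 was 2.36 (SE 0.30, limma adjusted p = 0.000179) in the abdomen, 2.41 (SE 0.30, limma adjusted p = 6.87e-05) in the back and 1.92 (SE 0.30, limma adjusted p = 0.000513) in the cheek. The back call was kept when any 1 of the 12 mice was left out. The abdomen call was lost without abdomen mouse 2 or 3 (limma adjusted p up to 0.00122), and the cheek call without any 1 of the back or cheek mice (limma adjusted p up to 0.00444).

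Has2 encodes the synthase that is the main one in fibroblasts and that mouse embryos need to form a heart. Its levels in the cheek were 1.78, 2.37, 2.59 and 2.07 FPKM unwounded and 5.81, 6.84, 9.78 and 8.96 FPKM in the wound. In the back they were 1.75, 1.15, 1.71 and 2.44 FPKM unwounded and 5.56, 4.76, 5.34 and 3.50 FPKM in the wound. In the abdomen they were 2.26, 3.39, 1.29 and 1.98 FPKM unwounded and 6.28, 3.64, 2.05 and 2.44 FPKM in the wound. The 2 groups overlapped in the abdomen alone of the 3 sites, where only the wound of mouse 1 lay well above the unwounded range. For Has2 the wound effect was 1.61 (SE 0.21, limma adjusted p = 9.72e-05) in the cheek and 1.24 (SE 0.21, limma adjusted p = 0.000464) in the back. In the abdomen it was 0.54 (SE 0.21, limma adjusted p = 0.0635) and did not pass. The cheek call was kept in all 12 fits that left out 1 mouse, and the back call was lost without back mouse 1, 2 or 3 (limma adjusted p up to 0.00459).

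Has1 was the synthase gene with the lowest level in these libraries, and it was among the tested genes only because of its wound levels. In the back its levels were 0.18, 0.12, 0.57 and 0.09 FPKM unwounded and 1.66, 1.72, 1.84 and 0.83 FPKM in the wound. In the abdomen they were 0.55, 0.31, 0.57 and 0.26 FPKM unwounded and 1.62, 0.72, 0.93 and 0.89 FPKM in the wound. In the cheek they were 0.49, 0.29, 0.48 and 0.20 FPKM unwounded and 0.75, 0.66, 1.05 and 0.58 FPKM in the wound. The groups did not overlap at any of the 3 sites. The wound effect of Has1 was 1.45 (SE 0.15, limma adjusted p = 1.25e-05) in the back, a call that every fit leaving out 1 mouse kept. It was 0.72 (SE 0.15, limma adjusted p = 0.00341) in the abdomen and 0.54 (SE 0.15, limma adjusted p = 0.0131) in the cheek, both short of the threshold. Because Has1 could enter the test as a rise alone, these results are given as a description. With unwounded levels this low, the pseudocount of 0.5 FPKM makes these differences smaller than the ratios of the levels.

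**Figure D2:**
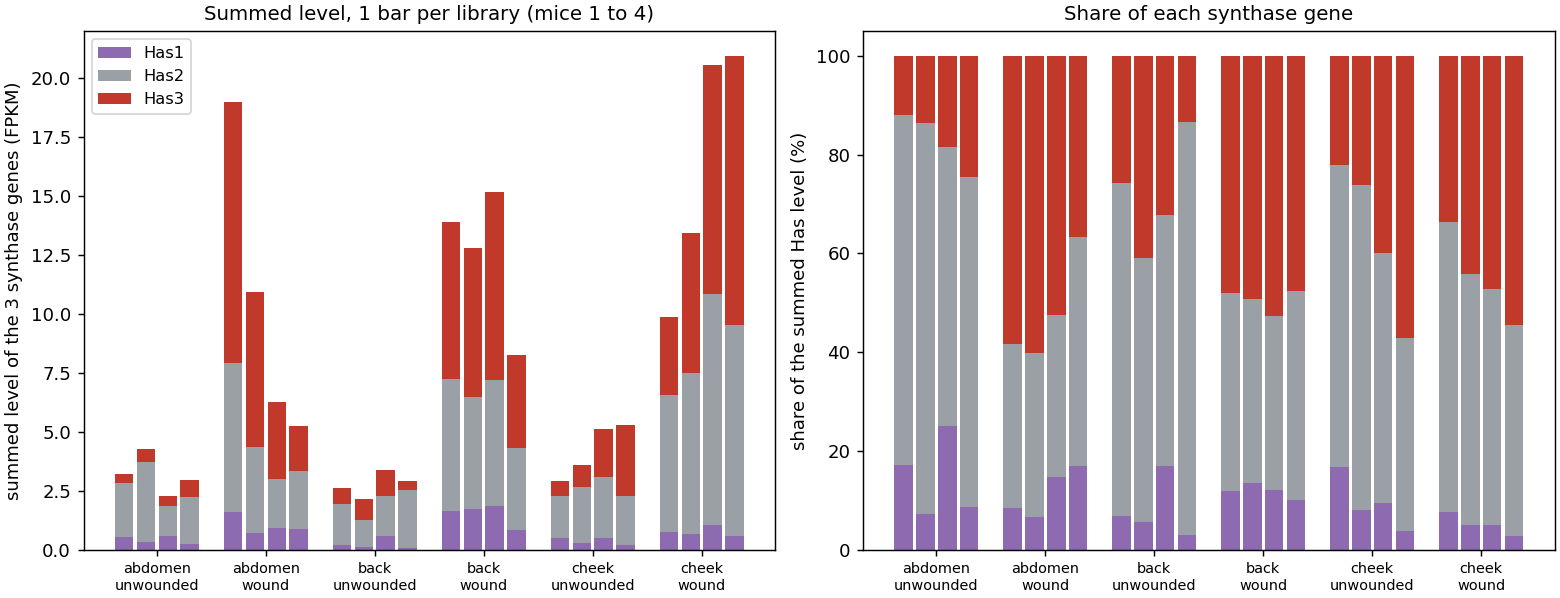
Left, summed level of Has1, Has2 and Has3 in FPKM, 1 bar per library; right, share of each gene in that sum in percent. The sum was higher in every wound than in the unwounded skin of the same mouse, and the Has3 share was higher in the wound in 11 of 12 mice.

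The summed level of the 3 synthase genes was 3.39 ± 1.02 FPKM (SD, n = 12) in unwounded skin and 13.0 ± 5.24 FPKM (SD, n = 12) in wounds. Its make-up also differed. Has2 gave 62.1 ± 12.7% of the sum in unwounded skin and 41.7 ± 8.14% in wounds, lower by 20.4 percentage points on average and in 11 of 12 mice. Has3 gave 27.1 ± 13.5% of the sum in unwounded skin and 48.7 ± 7.90% in wounds, higher by 21.6 percentage points and in 11 of 12 mice. A two-sided exact sign-change permutation test over the 12 mice gave p = 0.00195 for Has2 and p = 0.000977 for Has3, each 0.00293 after adjustment over the 3 genes, where the smallest p this test can give is 0.000488. The Has1 share was 10.7 ± 6.71% in unwounded skin and 9.57 ± 4.38% in wounds, a difference that did not pass (exact permutation p = 0.554). Because the 3 shares make up the whole sum in each library, the lower Has2 share and the higher Has3 share are not separate results.

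Whether this shift in the synthase shares differed between sites was not tested. In the abdomen the mean Has3 share went from 17.1% to 51.9% and in the back from 28.0% to 49.4%. In the cheek it went from 36.3% to 44.8%, and the 1 mouse in which it did not go up was cheek mouse 4, with 57.1% in unwounded skin and 54.4% in the wound. Within a site, 4 mice cannot bring an exact two-sided sign-change p below 0.125, so the within-site shares are given as values. Leaving out each mouse in turn kept the mean difference of Has3 between 19.3 and 23.8 percentage points.

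That unwounded library of cheek mouse 4 stood apart from its group. Its mean correlation with the other unwounded cheek libraries was 0.948, the lowest of the 24 libraries. Its summed level of 10 cell-division genes was 127.5 FPKM, against 29.4, 34.4 and 83.2 FPKM in the unwounded cheek of mice 2, 1 and 3. Without this mouse the wound effect in the cheek was 1.97 for Has3 (limma adjusted p = 0.00218), 1.52 for Has2 (limma adjusted p = 0.000729), 1.32 for Cd44 (limma adjusted p = 4.7e-05), 1.11 for Vcan (limma adjusted p = 0.00151), 1.45 for Tnfaip6 (limma adjusted p = 0.00451) and 1.2 for Hmmr (limma adjusted p = 0.000291). The calls of Has3, Vcan and Tnfaip6 were thus lost without it, and Hmmr passed.

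The hyaluronidases changed little beside the synthases. Hyal2, a surface-anchored enzyme that cuts long chains, measured 25.75, 22.23, 23.42 and 18.06 FPKM in unwounded abdomen and 28.07, 27.03, 27.88 and 24.12 FPKM in abdomen wounds. In the back it measured 18.34, 18.96, 18.33 and 14.95 FPKM unwounded and 22.04, 23.20, 24.38 and 20.83 FPKM in the wound, and these groups did not overlap. In the cheek the unwounded range of 17.26 to 24.97 FPKM contained the whole wound range of 21.08 to 23.65 FPKM. For Hyal2 the wound effect was 0.26 in the abdomen (limma adjusted p = 0.0299), 0.35 in the back (limma adjusted p = 0.0047) and 0.06 in the cheek (limma adjusted p = 0.58), with a 95% interval in the back of 0.17 to 0.54. Hyal1, a lysosomal enzyme that cuts chains after uptake, had a wound effect of 0.12 in the abdomen, 0.21 in the back and 0.28 in the cheek. None of these passed (limma adjusted p = 0.294, 0.0655 and 0.0234), and the upper 95% limits were 0.31, 0.39 and 0.46.

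Hyal1 was the only one of the 8 members tested in unwounded skin that was called between sites. Its levels in unwounded abdomen were 16.08, 16.61, 16.51 and 13.85 FPKM, in unwounded back 11.66, 11.33, 10.83 and 9.30 FPKM and in unwounded cheek 11.12, 11.02, 13.10 and 10.91 FPKM. All 4 abdomen libraries were above all 8 of the other sites. Unwounded back was lower than unwounded abdomen by a log2 difference of -0.53 (SE 0.10, limma adjusted p = 0.0177) and unwounded cheek by -0.43 (SE 0.10, limma adjusted p = 0.0427), at a threshold of 0.05. The back call was lost without abdomen mouse 2 or 3 (limma adjusted p up to 0.0698), and the cheek call was lost in 9 of the 12 fits that left out 1 mouse (limma adjusted p up to 0.132). In these comparisons 2.67% of 13956 tested genes were called between back and abdomen and 2.57% between cheek and abdomen. None of the 8 was called by limma between cheek and back, where 1.05% of genes were. At an unadjusted p below 0.05 there were 4 of the 8 in that comparison, against 21.6% of all tested genes. The summed level of 5 skeletal muscle genes also varied in unwounded skin, from 434 to 13416 FPKM in the abdomen and from 11973 to 18888 FPKM in the back, and its part in the Hyal1 difference was not tested.

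**Figure D3:**
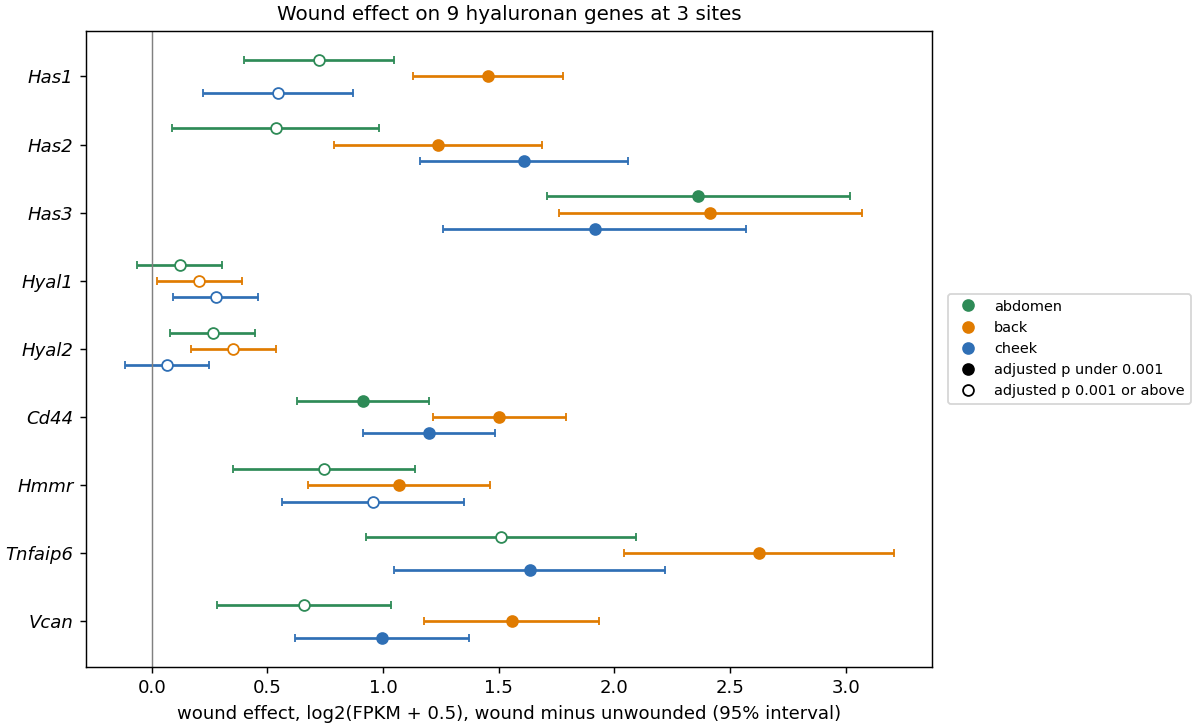
Wound effect of the 9 tested genes at each site as a log2(FPKM + 0.5) difference, wound minus unwounded, with 95% intervals from limma. Filled points passed an adjusted p of 0.001. The Has3 points lie between 1.92 and 2.41, and those of Hyal1 and Hyal2 between 0.06 and 0.35.

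Among the receptors, Cd44 encodes the main surface receptor for hyaluronan on fibroblasts, keratinocytes and leukocytes. The table gives 1 level for the gene over 6 transcripts, so its splice forms were not separated. Cd44 measured 27.09, 38.59, 31.65 and 31.62 FPKM in unwounded abdomen and 72.41, 54.49, 55.19 and 62.56 FPKM in abdomen wounds. In the back it measured 27.70, 22.50, 27.11 and 26.18 FPKM unwounded and 81.63, 73.45, 73.63 and 68.04 FPKM in the wound. In the cheek it measured 29.77, 27.43, 35.97 and 38.62 FPKM unwounded and 74.98, 79.45, 78.98 and 69.22 FPKM in the wound. The wound and unwounded groups were far apart at all 3 sites, and Cd44 and Has3 were the members called at each of them. The wound effect of Cd44 was 0.92 (SE 0.13, limma adjusted p = 0.000343) in the abdomen, 1.50 (SE 0.13, limma adjusted p = 3.5e-06) in the back and 1.2 (SE 0.13, limma adjusted p = 2.96e-05) in the cheek. The back and cheek calls were kept in all 12 fits that left out 1 mouse, and the abdomen call was lost without abdomen mouse 1, 3 or 4 (limma adjusted p up to 0.00269).

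Hmmr encodes RHAMM, which binds hyaluronan and is also a protein of the mitotic spindle. Its levels in the back were 2.94, 2.30, 2.31 and 2.18 FPKM unwounded and 6.33, 5.80, 5.85 and 4.63 FPKM in the wound, with no overlap. In the abdomen they were 2.85, 3.52, 2.37 and 2.82 FPKM unwounded and 6.74, 6.68, 3.36 and 4.52 FPKM in the wound, and in the cheek 2.98, 2.15, 4.81 and 6.23 FPKM unwounded and 6.66, 8.25, 8.97 and 7.38 FPKM in the wound. The unwounded cheek of mice 3 and 4 was above the unwounded libraries of the other sites. For Hmmr the wound effect was 1.07 (SE 0.18, limma adjusted p = 0.00052) in the back, and this call was lost without any 1 of the back mice (limma adjusted p up to 0.00412). It was 0.96 (SE 0.18, limma adjusted p = 0.00156) in the cheek and 0.74 (SE 0.18, limma adjusted p = 0.00848) in the abdomen.

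The level of Hmmr moved with that of cell-division genes, as the scatter of the 24 libraries shows. The 10 genes of that list (among them Mki67 and Top2a) summed to between 25.2 and 46.5 FPKM in the unwounded libraries of abdomen and back, where Hmmr was at most 3.52 FPKM. The unwounded cheek libraries of mice 3 and 4, at 83.2 and 127.5 FPKM, also had the highest unwounded levels of Hmmr. In wounds the list summed to between 75.0 and 151 FPKM, and 3 of its 10 genes passed the wound test in the back and 0 in the abdomen or cheek. Of all tested genes, 10% rose in the back, 3.92% in the abdomen and 6.50% in the cheek. The median wound effect of the 10 genes was 1.21 in the back, 1.02 in the abdomen and 0.96 in the cheek. The counts therefore do not show a rise in the back alone. The tested gene whose pattern was most like that of Hmmr over the 24 libraries was Bub1b, a mitotic checkpoint kinase, with a Pearson correlation of 0.973 on the log2 scale, given as a description over libraries that share mice and wound state.

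**Figure D4:**
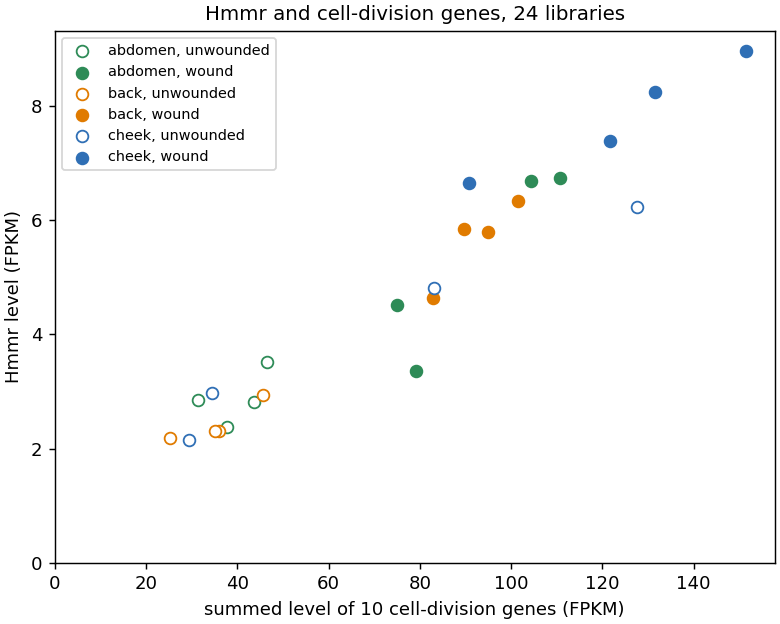
Level of Hmmr in FPKM against the summed level in FPKM of 10 cell-division genes in the 24 libraries, open for unwounded skin and filled for wounds. The 2 open points of the cheek at 83.2 and 127.5 FPKM lie among the wound libraries.

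The promoter sequences of the member genes were read from RefSeq for 8 of the 10. Those of Hmmr and Tnfaip6 are shown because these members moved with wounding and held the largest numbers of the motifs searched. The 250 bases before the listed start are printed 5′ to 3′ on the strand of the gene (GRCm38.p6), with capitals marking CCAAT, its reverse complement ATTGG, or the AP-1 motif TGANTCA.
Hmmr, chr11:40733438-40733687, minus strand: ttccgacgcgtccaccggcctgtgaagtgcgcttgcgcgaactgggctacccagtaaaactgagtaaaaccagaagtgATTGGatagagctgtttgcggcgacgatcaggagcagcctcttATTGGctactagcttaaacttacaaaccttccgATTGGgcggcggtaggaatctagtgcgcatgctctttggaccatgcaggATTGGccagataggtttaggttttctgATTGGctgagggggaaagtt
Tnfaip6, chr2:52037863-52038112, plus strand: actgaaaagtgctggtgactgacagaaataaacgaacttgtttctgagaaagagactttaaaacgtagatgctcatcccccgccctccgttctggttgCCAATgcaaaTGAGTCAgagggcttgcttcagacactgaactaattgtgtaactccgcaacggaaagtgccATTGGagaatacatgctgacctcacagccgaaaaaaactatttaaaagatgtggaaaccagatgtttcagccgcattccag
Hmmr held 5 matches to the CCAAT box, all as ATTGG, a motif that 37.4% of 32851 RefSeq promoters of 300 bases held at least once on either strand. Tnfaip6 held 1 AP-1 match, a motif found in 7.81% of those promoters, beside a CCAAT match and an ATTGG match. Of the other 6 promoters, Has1, Hyal1 and Vcan held 1 CCAAT-box match each. Both strands were also searched for the cell-cycle homology region TTTGAA, held by 17.9% of those promoters, and the TATA box TATAAA, held by 13.6%. The first was matched once in Has1 and once in Hmmr, there after the listed start and outside the bases shown, and the second in none of the 8. These matches are letters in a window and not measured binding sites.

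Tnfaip6, which encodes the secreted protein TSG-6 that is induced by inflammatory signals and loads proteins onto hyaluronan, had the largest wound effect of the 9 tested members in the back on the scale used, ahead of Has3. With a pseudocount of 0.1 FPKM the order turned, at 2.80 for Tnfaip6 and 2.91 for Has3. Its levels there were 3.20, 1.52, 3.67 and 2.36 FPKM unwounded and 18.00, 18.58, 23.58 and 14.64 FPKM in the wound. In the cheek they were 4.88, 4.58, 6.40 and 3.18 FPKM unwounded and 15.92, 12.67, 17.31 and 16.18 FPKM in the wound, and in the abdomen 2.01, 3.89, 2.63 and 2.53 FPKM unwounded and 14.58, 5.52, 8.53 and 7.87 FPKM in the wound. Wound and unwounded libraries did not overlap at any site, and the abdomen wounds of mice 2, 3 and 4 were below all wounds of the other sites. The wound effect of Tnfaip6 was 2.62 (SE 0.27, limma adjusted p = 1.89e-05) in the back and 1.63 (SE 0.27, limma adjusted p = 0.00074) in the cheek. It was 1.51 (SE 0.27, limma adjusted p = 0.00172) in the abdomen, short of the threshold. The back call was kept in every fit that left out 1 mouse, and the cheek call in 3 of 12 (limma adjusted p up to 0.00451).

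Vcan encodes versican, a large proteoglycan that binds hyaluronan chains and is abundant in young wound matrix. In the back it measured 5.09, 4.81, 6.70 and 5.95 FPKM unwounded and 17.56, 17.07, 18.09 and 16.96 FPKM in the wound, the narrowest spread of any wound group of this gene. In the cheek it measured 5.67, 7.10, 8.35 and 10.12 FPKM unwounded and 15.98, 16.80, 13.99 and 16.34 FPKM in the wound, and in the abdomen 5.90, 8.16, 7.33 and 7.49 FPKM unwounded and 15.94, 8.62, 10.39 and 12.63 FPKM in the wound. No wound library lay within the unwounded range of its site, although abdomen mouse 2 came close. For Vcan the wound effect was 1.56 (SE 0.17, limma adjusted p = 2.55e-05) in the back, kept in all 12 fits that left out 1 mouse. It was 1.00 (SE 0.17, limma adjusted p = 0.000926) in the cheek, kept in 2 of 12 (limma adjusted p up to 0.00738), and 0.66 (SE 0.17, limma adjusted p = 0.0128) in the abdomen. The tested gene whose pattern was most like that of Vcan was another member, Cd44, with a Pearson correlation of 0.962 over the 24 libraries.

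Hapln1 encodes a link protein that pins proteoglycans such as versican to hyaluronan. It lies beside Vcan on chromosome 13, 43659 bases away and on the opposite strand. Its level was at most 0.42 FPKM in any library, so it was not tested with the other members. It measured 0.23, 0.42, 0.33 and 0.27 FPKM in unwounded abdomen and 0.06, 0.03, 0.13 and 0.03 FPKM in abdomen wounds. In the back it measured 0.25, 0.17, 0.07 and 0.17 FPKM unwounded and 0.05, 0.05, 0.05 and 0.02 FPKM in the wound, and in the cheek 0.05, 0.23, 0.16 and 0.22 FPKM unwounded and 0.09, 0.06, 0.13 and 0.21 FPKM in the wound. The abdomen and back groups did not overlap and the cheek groups did. In a fit with no filter on low values the difference was -0.53 in the abdomen (limma adjusted p = 0.00184), -0.29 in the back (limma adjusted p = 0.0263) and -0.09 in the cheek (limma adjusted p = 0.494), none of which passed 0.001.

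The differences between the sites in these wound effects were tested directly. A moderated F test of the 3 wound effects in limma called none of the 9 genes at an adjusted p below 0.05, where 3 of 14423 genes (0.0208%) were called. Of the 9, 5 had an unadjusted p below 0.05 (Has1, Has2, Vcan, Tnfaip6 and Cd44), with adjusted p between 0.228 and 0.321, against 12.9% of all tested genes. Has1 among them was tested only because of its wound levels. The adjusted p was 0.72 for Has3, whose wound effects differed by 0.05 for back minus abdomen, by -0.45 for cheek minus abdomen and by -0.50 for cheek minus back (SE 0.43 each). A call at 1 site and not at another, as for Has1 and Hmmr, is therefore not shown to be a difference between the sites. The F test depended on 1 mouse, since without abdomen mouse 1 it called 315 of 14381 genes. The wound of that mouse had the highest level among the abdomen wounds for Has1, Has2, Has3, Cd44, Hmmr, Tnfaip6 and Vcan.

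Between the wounds themselves, 3 of the 9 members differed between cheek and abdomen at an adjusted p below 0.05, where 10.8% of 14023 genes did. Has2 was higher in cheek wounds by a log2 difference of 1.10 (SE 0.28, limma adjusted p = 0.0315), with a mean of 7.85 ± 1.84 FPKM in the cheek and 3.60 ± 1.91 FPKM in the abdomen (SD, 4 mice each) and 1 abdomen library inside the cheek range. Tnfaip6 was higher by 0.81 (SE 0.24, limma adjusted p = 0.0496). Hyal2 was lower in cheek wounds by a difference of -0.25 (SE 0.07, limma adjusted p = 0.0459), at 22.4 ± 1.06 FPKM against 26.8 ± 1.83 FPKM. These calls were weak: leaving out 1 mouse kept that of Has2 in 7 of 12 fits (limma adjusted p up to 0.0842), that of Hyal2 in 3 (up to 0.115) and that of Tnfaip6 in 1 (up to 0.112), and with the mouse number as a block the Has2 call was lost (limma adjusted p = 0.0578). The limma test called none of the 9 between back and abdomen wounds, where 1.27% of genes were called, and at an unadjusted p below 0.05 there were 5 of the 9, against 16.5% of all tested genes. Tnfaip6 just missed there, higher in back wounds by 1.06 (SE 0.24, limma adjusted p = 0.0531), more than the called cheek difference. Vcan was higher by 0.57 (limma adjusted p = 0.0734), and neither gene had overlapping libraries. Cd44 was higher by 0.28, and Hyal1 and Hyal2 were lower, at -0.45 and -0.24 (limma adjusted p = 0.161, 0.071 and 0.117). The limma test called none between cheek and back wounds, where 2.50% were, and at an unadjusted p below 0.05 there were 3 of the 9, near the 26.1% of all tested genes.

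Lists of cell markers also moved beside these members. The summed level of 6 neutrophil genes was 15.1 to 47.6 FPKM in unwounded libraries and 365 to 2411 FPKM in wounds, and 5 of the 6 rose in the abdomen and all 6 in the back and cheek. Of 6 macrophage genes, 2 rose in the abdomen and 4 in the back and cheek. Of 4 genes of activated keratinocytes, 3 rose in the abdomen, 4 in the back and 3 in the cheek. Of 5 keratinocyte genes, 2 rose at each site. Of 4 endothelium genes, 1 rose in the abdomen and 2 in the back and cheek. Of 6 fibroblast genes, none rose in the abdomen or back and 1 rose in the cheek, while 1 fell in the back. Among these, Col1a1, Col1a2, Dcn and Lum had negative wound effects at every site. Pdgfra and Pdgfrb had positive ones in the back and cheek. Of all tested genes, 3.92% rose in the abdomen, 10% in the back and 6.50% in the cheek, and 4.37% fell in the back. The markers of these lists were above 0 in all 24 libraries. The part of these cells in the results on the hyaluronan genes was not tested, and in whole skin more cells of a type and more RNA per cell cannot be told apart.

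The wider hyaluronan pathway was read from a list of 41 further genes, of which 40 were in the table and 30 were tested. In the back 8 of the 30 rose and 1 fell, in the cheek 6 rose and in the abdomen 4 rose. Of all tested genes, 10% rose in the back, 6.50% in the cheek and 3.92% in the abdomen, and 4.37% fell in the back. The median wound effects of the 30 genes were 0.44, 0.30 and 0.07, against medians over all tested genes of 0.07, 0.01 and -0.01. The pathway counts include Cemip, which was tested only because of its wound levels, and without it 7, 5 and 3 rose. By the mean of the 3 wound effects on the log2(FPKM + 0.5) scale the gene with the largest rise was Adamts4, a protease that cleaves versican, at 0.728 ± 0.343 FPKM in unwounded back and 7.67 ± 1.12 FPKM in back wounds. Adamts4 had a wound effect of 2.18 in the abdomen (limma adjusted p = 2.18e-05), 2.76 in the back (limma adjusted p = 1.33e-06) and 2.54 in the cheek (limma adjusted p = 3.19e-06). The next was Ptx3, whose product pentraxin 3 joins TSG-6 in organising hyaluronan matrices, at 1.28 ± 0.232 FPKM in unwounded back and 15.1 ± 7.09 FPKM in back wounds. Ptx3 had a wound effect of 3.05 in the back (limma adjusted p = 0.000159), and did not pass in the cheek at 1.97 (limma adjusted p = 0.00353) or the abdomen at 1.58 (limma adjusted p = 0.0132).

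The 1 gene of the pathway list that fell was Ugp2, whose enzyme makes UDP-glucose, the source of 1 of the 2 sugars of hyaluronan. Ugp2 went from 149 ± 41.0 FPKM in unwounded back to 58.5 ± 7.71 FPKM in back wounds, a wound effect of -1.30 (SE 0.16, limma adjusted p = 4.36e-05), and it was -0.50 in the abdomen and -0.57 in the cheek (limma adjusted p = 0.0274 and 0.0139). UDP-glucose also feeds glycogen, and the 5 skeletal muscle genes went from a median of 15731 FPKM summed in unwounded back to 3723 FPKM in back wounds, whose part in the Ugp2 result was not tested. The other 6 precursor genes had limma adjusted p between 0.00302 and 0.733 and were not called.

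**Figure D5:**
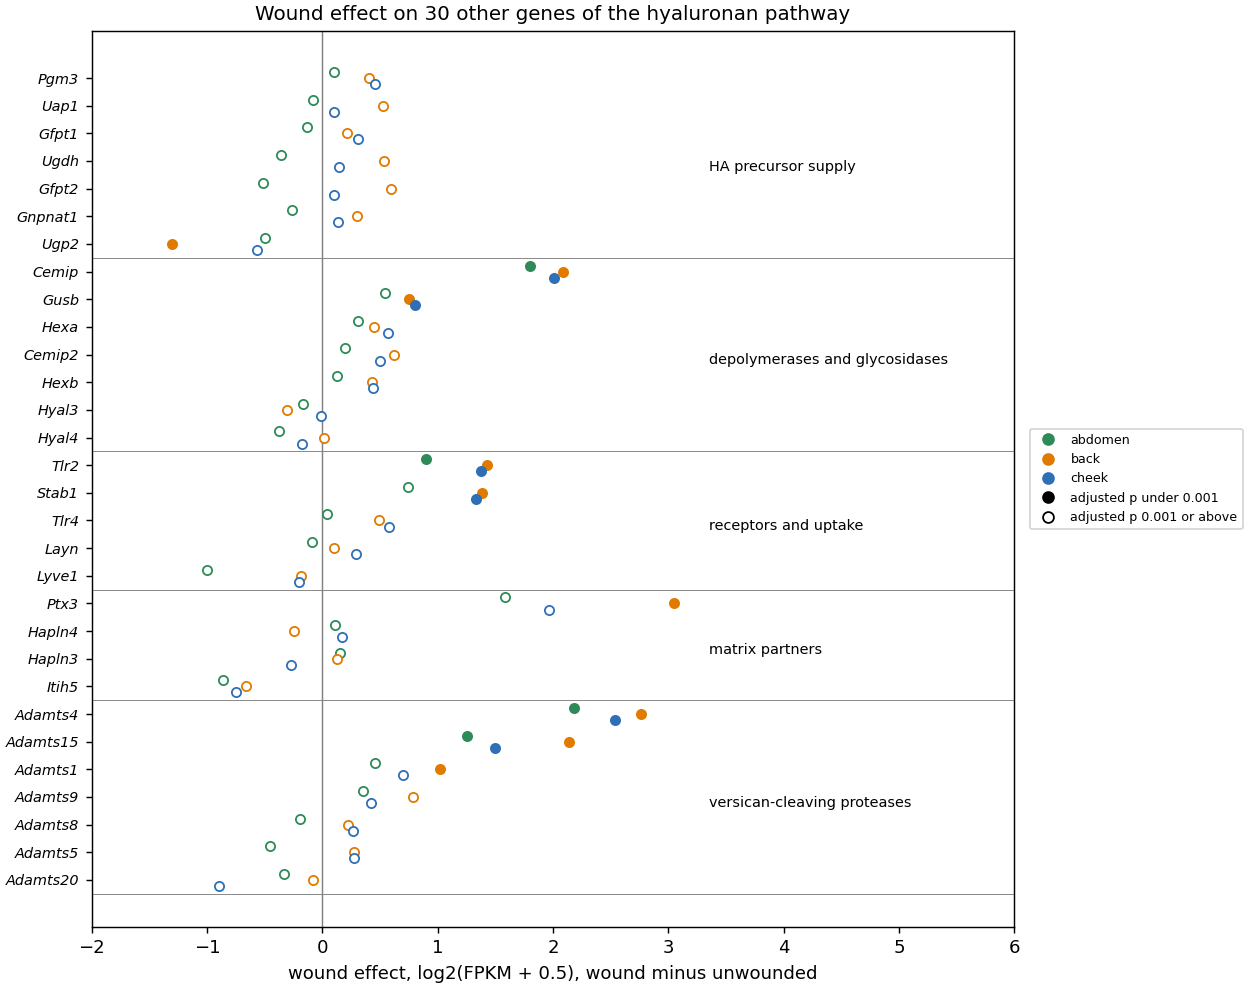
Wound effect of the 30 tested pathway genes beyond the members at each site, as a log2(FPKM + 0.5) difference, wound minus unwounded, grouped by role. Filled points passed an adjusted p of 0.001. Adamts4 lies between 2.18 and 2.76, and Ugp2 in the back lies at -1.30.

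Among the enzymes that cut hyaluronan, the only ones called at any site were Cemip and Gusb. They and the receptor and protease genes named after them were chosen after their values were seen. Cemip encodes a hyaluronan-depolymerising protein, and its level was 0.060 ± 0.014 FPKM in unwounded back and 1.89 ± 0.277 FPKM in back wounds. No unwounded library and all 12 wound libraries of Cemip reached 0.5 FPKM, so it could enter the test as a rise alone and its values are given as a description. The mean level of Cemip in wounds was 18.9 times that in unwounded skin in the abdomen, 31.5 times in the back and 9.92 times in the cheek, where the ratios for Adamts4 were 6.84, 10.5 and 7.48. Per length, Hyal1 and Hyal2 were above Cemip in every library. Gusb, a lysosomal glucuronidase, had wound effects of 0.75 in the back and 0.81 in the cheek (limma adjusted p = 0.000174 and 0.000155). Of 5 tested receptors and uptake genes, Tlr2 rose at all 3 sites and the scavenger receptor gene Stab1 rose in the back and cheek, while Lyve1, a hyaluronan receptor of lymphatic vessels, had values of -0.997, -0.18 and -0.20 in the abdomen, back and cheek that did not pass (limma adjusted p = 0.00773, 0.556 and 0.532). Of 7 versican-cleaving proteases, Adamts15 was called at all 3 sites beside Adamts4, and Adamts1 in the back.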

How the data were processed

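RNA from 24 punch samples of whole mouse skin was sequenced by BGI on the BGISEQ-500 platform as paired reads of 100 bases. Per the labels and the methods of the study, reads were mapped to GRCm38/mm10 with HISAT2 and Bowtie2 (2.2.5) and quantified with RSEM (1.2.12), and the authors deposited 1 table of FPKM values per gene, rounded to 2 decimals. A second table of 18 columns holds the authors' own DESeq2 log2 fold changes and adjusted p-values and was not used. FPKM carry no read totals and the low values are rounded too coarsely to recover them, so depth and counting error are unknown. The FPKM summed to between 490830 and 608888 per library, and no 2 libraries were identical. Whether the counting used strand is not given in the sources used here. Has2 overlaps the antisense Has2os, Has3 overlaps Chtf8 and Hyal1 overlaps Hyal3, and fragments from such overlaps may be shared.

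Testing was limited to genes reaching 0.5 FPKM in 4 or more of the libraries fitted together, and used limma (3.58.1, R 4.3.3, trend and robust moderation) on log2(FPKM + 0.5), with Benjamini-Hochberg adjustment over all tested genes. Wound effects came from 1 fit of all 24 libraries with mouse as a term (called below 0.001), site comparisons from fits of the 12 unwounded or 12 wound libraries (called below 0.05). Wound and unwounded libraries of 1 mouse deviated together from their group means, with a mean r of 0.322 in the abdomen, 0.348 in the back and 0.281 in the cheek. In the abdomen the 4 mice ranged from -0.030 to 0.530. For different mice the mean r was -0.108, -0.116 and -0.0958, which follows largely from taking deviations from group means and is no separate evidence. The pairing comes from the labels and the design of the study. The fit was tested on simulated data with normal noise and a rise of a single size added in back wounds alone. How often it misses smaller effects was not measured. Synthase shares were compared with an exact sign-change test (Python 3.11.15). Promoters were taken from RefSeq (GRCm38.p6).

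The members and lists were chosen with earlier results of these data known. Every member was named, and of the pathway lists the 2 called genes with the largest mean rise and the 2 with the largest fall, of which there was 1. Cemip, Gusb, Tlr2, Stab1, Lyve1, Adamts15 and Adamts1 were named in addition, after their values were seen. The tested gene most like a member was chosen by Pearson correlation. Pseudocounts of 0.1 and 1, other filters, scalings, moderation, blocks, fits of each site alone, a wound threshold of 0.05 and leaving out each mouse were tried.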

Additional observations from a re-analysis of the deposited data

Results flagged for a closer look

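Among the 60 groups formed by 10 genes and 6 groups of 4 libraries, 3 held a library flagged by Dixon's test. In each, the gap of that library to its nearest neighbour, divided by the range of the group, exceeded the 95% critical value. Chance flags about 1 in 20 groups, and the 3 are given as values. Hyal1 measured 13.1 FPKM in the unwounded cheek of mouse 3, where the other 3 mice lay between 10.91 and 11.12 FPKM. Hyal2 measured 14.95 FPKM in the unwounded back of mouse 4, where the others lay between 18.33 and 18.96 FPKM. Hapln1 measured 0.02 FPKM in the back wound of mouse 4, where the others were at 0.05 FPKM, a gap of few units of the last recorded decimal.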

How the results depend on the processing

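The count of members called in the back stayed between 5 and 7 when 1 mouse was left out and between 6 and 8 under every other alternative run. In the abdomen the 2 calls became 0 with separate fits of the 8 libraries from each site and 7 at a threshold of 0.05, and leaving out 1 mouse gave 0 to 2. In the cheek the 5 calls became 3 with no filter, 2 with separate fits and 8 at a threshold of 0.05, and leaving out 1 mouse gave 2 to 5. The call of Hyal1 between unwounded cheek and abdomen was lost with no filter, without trend and robust moderation, and with the mouse number as a block (0 calls each). The 3 calls between cheek and abdomen wounds became 1 with no filter, 1 without that moderation and 1 with all 24 libraries as 6 groups. Leaving out 1 mouse gave 0 to 1 calls for unwounded back and for unwounded cheek against abdomen, 0 to 2 for back against abdomen wounds, 0 to 5 for cheek against abdomen wounds and 0 to 2 for the difference between the 3 wound effects. The causes were not tested.

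Without the replicate block the wound calls were 3 in the abdomen, 7 in the back and 4 in the cheek. For the synthase shares, taking 12 wound against 12 unwounded libraries without the block leaves the mean differences as they are by arithmetic (Has3, 21.6 percentage points) and bears only on the permutation p. Mouse numbers do not pair sites (mean r of same-numbered libraries of 2 sites, -0.0273 unwounded and -0.0507 in wounds), and blocking on them gave 1 call between unwounded back and abdomen and 2 between cheek and abdomen wounds.

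Signs turned for differences near 0 that were not called. Under median-ratio scaling and quantile normalization Tnfaip6 in unwounded back against abdomen became 0.0488 and 0.0124, and Hyal1 in unwounded cheek against back -0.0541 and -0.0599. Under quantile normalization Has2 and Cd44 in unwounded cheek against abdomen became -0.0805 and -0.0062, and under median-ratio scaling Cd44 in cheek against back wounds became -0.0802. Leaving out 1 mouse gave -0.0416 to 0.119 for the wound effect of Hyal2 in the cheek. It gave -0.204 to 0.144 for Tnfaip6 in unwounded back against abdomen. In unwounded cheek against abdomen it gave -0.153 to 0.22 for Has2, -0.148 to 0.0496 for Hyal2, -0.051 to 0.118 for Cd44 and -0.0409 to 0.22 for Vcan. In back against abdomen wounds it gave -0.0505 to 0.702 for Has3 and -0.0626 to 0.24 for Hmmr. In cheek against back wounds it gave -0.0543 to 0.491 for Has3, -0.0487 to 0.0253 for Hyal2 and -0.0113 to 0.0757 for Cd44.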

Other observations

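The tested genes most like each member over the 24 libraries were chosen by the Pearson correlation of log2(FPKM + 0.5), as a description with no test, since the libraries share mice and wound state. For Has3 the nearest was E2f7, a cell-cycle transcription factor gene, at 0.983, followed by Uck2 at 0.964. For Cd44 they were Wdr1 at 0.982 and Msn at 0.979, the latter encoding moesin, which links CD44 to the actin cytoskeleton. For Has2 they were Il1r1, a receptor gene for interleukin 1, at 0.938 and Glis3 at 0.937. Tnfaip6 was nearest to Srpx2 at 0.956 and the glucose transporter gene Slc2a3 at 0.951. The values were lower for Hyal2, at 0.893 with Lman2, for Hyal1, at 0.878 with Dolpp1, and for Hapln1, at 0.793 with Zfp65.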
